A study of Mus musculus with 6 samples.

Results

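The genes described here are the 39 Hox genes of the mouse and 6 further transcription factor genes that mark where a fat depot lies in the body, Tbx15, Shox2, En1, Tcf21, Tbx5 and Meox2. They were chosen by name, with earlier results of these data known. Every listed gene called Hoxa, Hoxb, Hoxc or Hoxd with a number plus these 6 gave 45 of the 55573 genes measured. RNA-seq was performed on whole inguinal fat, the subcutaneous depot beside the hindlimb, from 3 Wt mice and 3 mutant mice homozygous for a global knock-in of THRA K283Q/K288R, a pair of lysine replacements that lower the sumoylation of thyroid hormone receptor alpha. All 6 mice were untreated C57BL/6NTac males, 3 months old and fed regular chow, with total RNA and 1 library each. Per the study's methods, the Wt controls were bred in the same house on the background strain of the mutant line, and no shared litters of the genotypes are described. The p-values measure the spread between these mice.

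Hox genes encode homeodomain transcription factors that sit in clusters, and each gene's paralog number gives its place along its cluster. Low numbers are switched on early and toward the head of the embryo, and high numbers late and toward the tail or the tip of a limb. Adult fibroblasts and adipocyte precursors keep much of this pattern, so that fat depots from different places carry different sets of active Hox genes. The comparison of genotypes asks whether the tissue taken from mutant mice carried the same positional pattern as that from Wt mice.

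The 6 libraries held 19607423 to 24228381 reads on genes. Levels are the deposited normalized CPM, reads scaled to library size and then by a further factor for each mouse. Levels of different genes are compared only per kb, as normalized CPM per kb of exon unless stated. Exon length counts each base in any annotated exon of a gene once, so it can exceed the longest transcript. The detection floor was set at 3 reads, or 0.126 to 0.157 on this scale, and covers counting error only. A gene is called expressed at a normalized CPM of at least 1 in every mouse.

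The set of Hox genes above the detection floor was the same in all 6 mice. The same 30 of the 39 Hox genes lay above the floor in each mouse, and the other 9 were at or below it in each. Of these 9, Hoxb1, Hoxb13, Hoxc12, Hoxd1, Hoxd12 and Hoxd13 had no read in any mouse, which allows up to 3 reads per mouse. Hoxa13 had 6 reads, Hoxc13 1 read and Hoxd11 1 read over all 6 libraries. Expressed were 25 Hox genes, 8 of 11 in HoxA, 8 of 10 in HoxB, 6 of 9 in HoxC and 3 of 9 in HoxD. At a normalized CPM of 1 the mice were less alike. Hoxa11 (1.03) and Hoxd10 (1.12) reached it in mutant mouse 2 alone. Hoxc11 reached it in Wt mouse 2 and mutant mice 2 and 3, and Hoxa2 in every mouse but Wt mouse 3 (0.968). The HoxA, HoxB, HoxC and HoxD clusters lie on chromosomes 6, 11, 15 and 2 of the mouse genome (GRCm38).

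**Figure D1:**
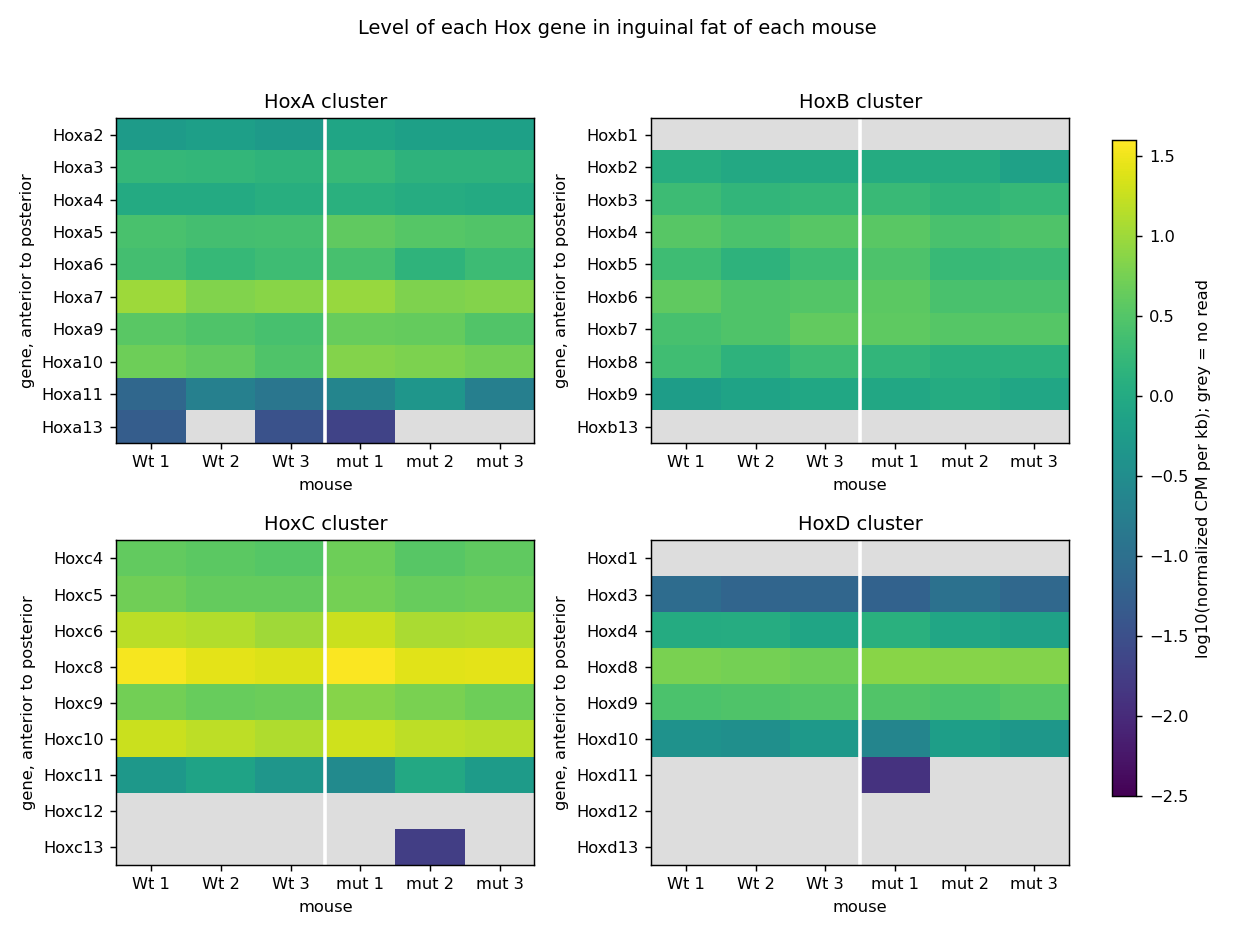
Each cell shows the level of a Hox gene (rows, ordered by paralog number) in a mouse (columns, 3 Wt and 3 mutant) as log10 of normalized CPM per kb, and grey cells had no read (1 HoxA gene is not shown). In every mouse the levels fall off after paralog 10 in HoxA and HoxC, after paralog 9 in HoxB and between paralogs 9 and 10 in HoxD.

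HoxC led the profile. Summed per kb over all Hox genes, HoxC made up 55.0% to 59.5% of the total in the 6 mice, HoxA 19.2% to 21.6%, HoxB 12.3% to 16.8% and HoxD 7.39% to 9.54%. Paralog groups 4 to 8 held 64.2% to 69.5% and groups 9 and 10 together 25.1% to 29.9%. Groups 11 to 13, the highest paralog numbers, held 0.346% to 1.15%, with the highest share in mutant mouse 2. Nearly all of this came from group 11 (0.617% over all mice, against 0.016% for group 13). By paralog group the largest contributions over all mice came from group 8 (29.3%), group 10 (17.0%) and group 6 (14.8%).

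At the detection floor, each cluster stopped at the same place in every mouse. The last gene above the floor was Hoxa11, Hoxb9, Hoxc11 and Hoxd10 in all 6 mice. In HoxA, HoxC and HoxD the level dropped between the last gene and the one before it. Per kb, Hoxa10 stood 13.8 to 68.4 times as high as Hoxa11, Hoxc10 stood 16.7 to 70.9 times as high as Hoxc11, and Hoxd9 stood 4.45 to 13.1 times as high as Hoxd10. Mutant mouse 2 had the lowest of each of these ratios (13.8, 16.7 and 4.45). It also had the highest normalized CPM of Hoxa11 (1.03), Hoxc11 (1.88) and Hoxd10 (1.12). In HoxB the last gene was itself expressed, Hoxb8 at 1.64 and Hoxb9 at 0.837 normalized CPM per kb, and the next gene, Hoxb13, had no read. The lower gene of each pair in the other clusters rested on few reads, 62 over all 6 mice for Hoxa11. At least 10 reads were reached by Hoxa11 in 2 mice, by Hoxd10 in 5 and by Hoxc11 in all 6. The shared end of HoxA and HoxD thus depends on the low floor.

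Across the 30 detected Hox genes, the log2 levels per kb of any 2 mice correlated closely, as a description over genes that are not independent replicates. Pearson's r was 0.970 to 0.988 in the 6 pairs of mice with the same genotype and 0.962 to 0.987 in the 9 pairs with different genotypes. The mean paralog number, weighted by level per kb, was 7.26 ± 0.058 for Wt and 7.33 ± 0.060 for mutant mice (SD, n = 3). The genotypes overlapped, with 7.19 to 7.30 in Wt and 7.28 to 7.40 in mutant mice. Some shares of the summed level did not overlap between the genotypes and are given with no test. Groups 9 and 10 held 25.9%, 26.7% and 25.1% in Wt and 27.1%, 29.9% and 27.4% in mutant mice, each from mouse 1 to 3. Groups 1 to 3 held 4.76%, 5.05% and 4.92% in Wt and 4.56%, 4.72% and 4.39% in mutant mice. HoxA held 20.1%, 19.2% and 19.6% in Wt and 20.7%, 21.6% and 20.3% in mutant mice. The shares of HoxB, HoxC and HoxD and of groups 4 to 8 and 11 to 13 overlapped.

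**Figure D2:**
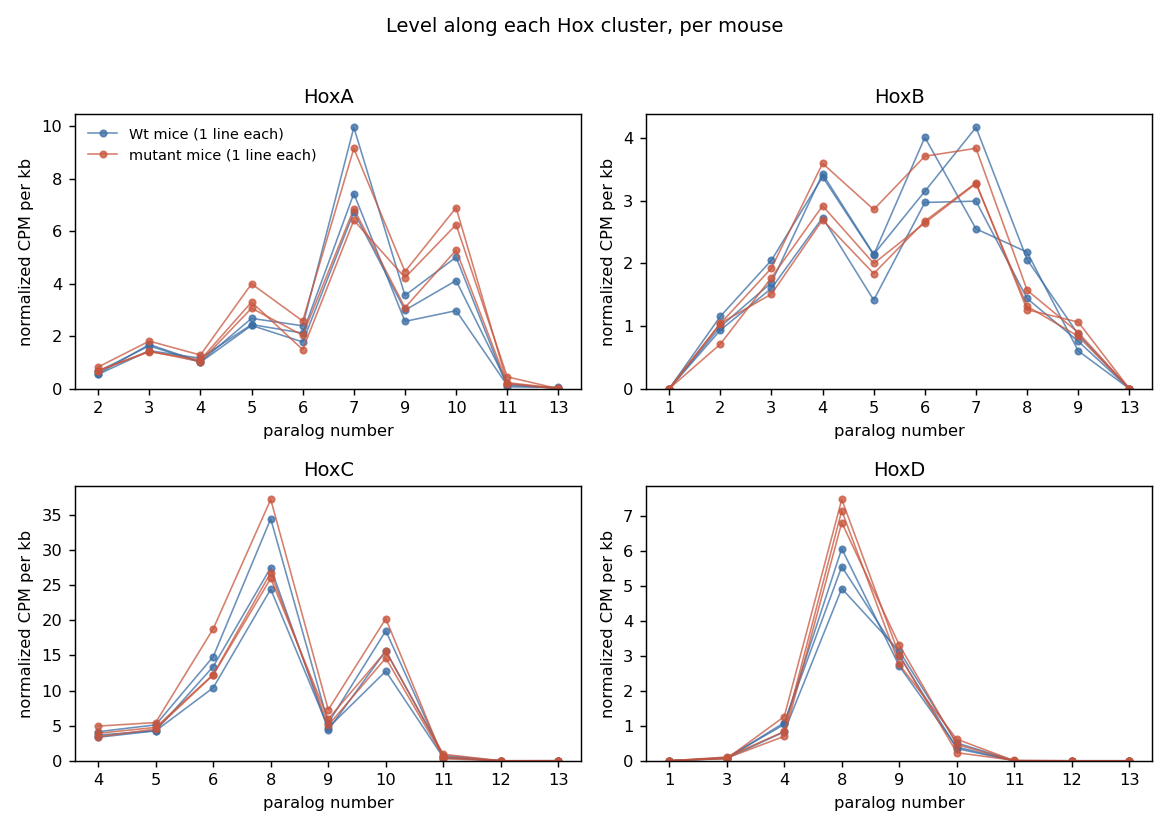
Normalized CPM per kb (vertical axis) along each Hox cluster by paralog number (horizontal axis), with 1 line for each of 3 Wt and 3 mutant mice (1 HoxA gene is not shown). Hoxa7, Hoxc8 and Hoxd8 are the highest points of their clusters in every mouse, HoxA and HoxC rise again at paralog 10, and the lines of the genotypes interleave except at Hoxd8, Hoxa10, Hoxa5 and Hoxa2.

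No member differed between the genotypes at an FDR of 0.05. Of the 45 members, 33 passed the filter on low reads and were tested with limma on log2(normalized CPM + 0.5), with Benjamini-Hochberg adjustment over all 16868 genes tested, and 0 were called. In the same comparison 1368 genes were called, 928 higher and 440 lower in mutant mice, which is 8.11% of the genes tested. edgeR's quasi-likelihood test and DESeq2 on the recovered reads also called 0 members. At an unadjusted p below 0.05 limma gave 4 members, Hoxa5, Hoxa10, Hoxd8 and Meox2, or 12.1% against 24.2% of all genes. The smallest adjusted p among the members was 0.101 (limma, Hoxd8).

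The size of the differences was small. Fitted log2 fold changes ran from -0.39 (Hoxb8) to 0.61 (Hoxa10), with a median of 0.07 over the members and -0.05 over all genes tested. A 95% interval of the difference lay within 2-fold in both directions for 32 of the 33 members tested, against 76.3% of all genes tested. The exception was Hoxa10, with an interval of 0.12 to 1.10. The median standard error was 0.185 for the members and 0.160 for all genes. Every mutant mouse lay above every Wt mouse for 4 members (12.1%), against 14.9% of all genes tested, and below for 1 member (3.03%), against 15.7%.

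**Figure D3:**
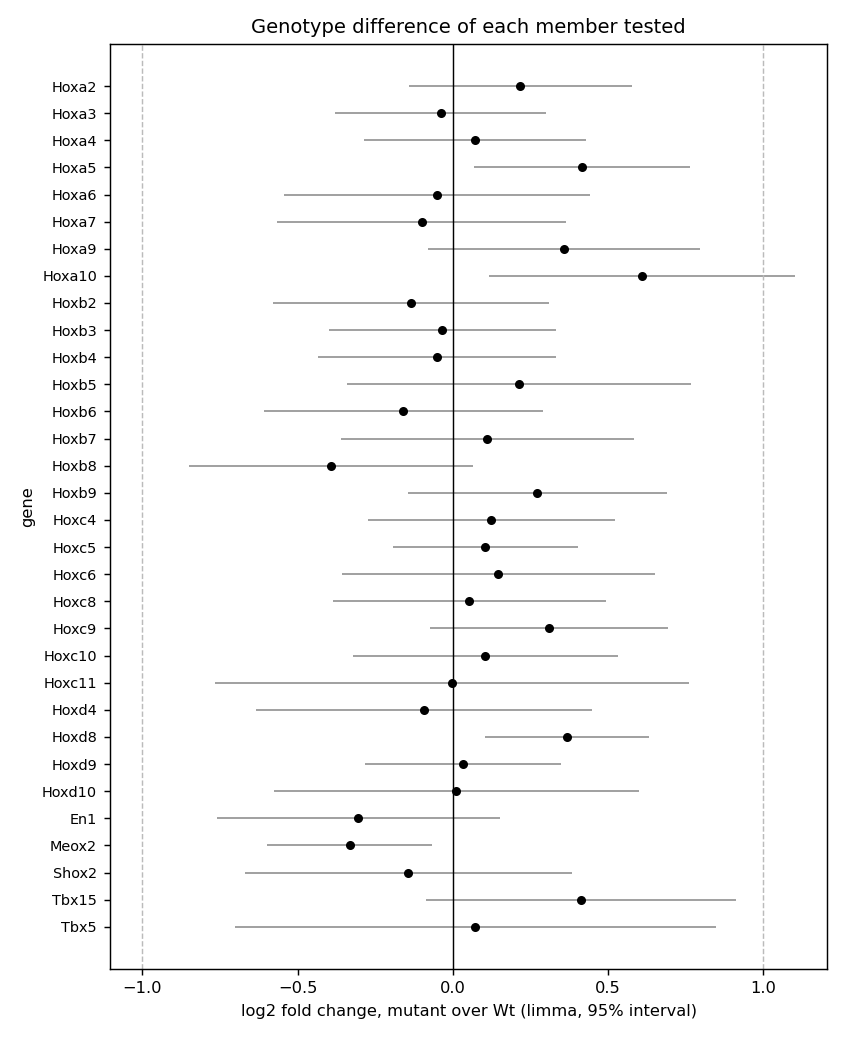
The log2 fold change of mutant over Wt mice (horizontal axis) for 32 of the 33 members tested (rows), with the 95% interval from limma as a bar and dashed lines at a 2-fold difference. The interval of Hoxa10 alone passes a dashed line, and those of Hoxa5, Hoxa10, Hoxd8 and Meox2 leave out 0 before adjustment.

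In HoxA, the highest genes per kb were Hoxa7 (7.75), Hoxa10 (5.09) and Hoxa9 (3.48 normalized CPM per kb, mean of 6 mice). Hoxa10 is a posterior gene of the trunk, the reproductive tract and the limb, and was the most posterior HoxA gene expressed in every mouse. Wt mice 1, 2 and 3 had a normalized CPM of 16.4, 13.5 and 9.72, and mutant mice 1, 2 and 3 had 22.5, 20.4 and 17.3, the order in which values are given throughout. All mutant values were higher, but Wt mouse 1 and mutant mouse 3 lay close together, and the log2 fold change was 0.61 ± 0.20 (SE, adjusted p = 0.133, limma). Its neighbour Hoxa9 showed 19.8, 16.7 and 14.3 in Wt and 24.9, 23.6 and 17.2 in mutant mice. The genotypes overlapped (log2 fold change 0.36 ± 0.18, SE, adjusted p = 0.290, limma). For Hoxa7 the values were 28.6, 19.4 and 21.4 in Wt and 26.3, 18.4 and 19.7 in mutant mice, so mouse 1 was highest in both genotypes and the difference was within the spread (-0.10 ± 0.19, SE).

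Hoxa5 and Hoxa2 were picked out after their values were seen, as the other members of HoxA without overlap. Hoxa5, a patterning gene of the cervical and upper thoracic region that many fat depots express, had 5.03, 4.52 and 4.59 in Wt and 7.49, 6.19 and 5.76 in mutant mice. The log2 fold change was 0.42 ± 0.14 (SE, adjusted p = 0.143, limma), and an exact permutation test gave p = 0.1, the smallest that 3 against 3 mice allow. Hoxa2, a gene of the hindbrain and the second branchial arch, lay at 1.01, 1.17 and 0.968 in Wt and 1.47, 1.21 and 1.22 in mutant mice, with an adjusted p of 0.410 (limma). Hoxa3, Hoxa4 and Hoxa6 overlapped between the genotypes, with log2 fold changes from -0.05 to 0.07. Hoxa11 lay between 0.168 and 1.03 and was not tested. Its exons share 800 bases with the antisense gene Hoxa11os, and whether the counting used strand is not stated in the sources used here.

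In HoxB, 8 genes from Hoxb2 to Hoxb9 were expressed and none of the 8 separated the genotypes. Hoxb7, Hoxb6 and Hoxb4 were highest, at 3.35, 3.19 and 3.12 normalized CPM per kb. Hoxb7 had 3.94, 4.62 and 6.44 normalized CPM in Wt and 5.92, 5.07 and 5.05 in mutant mice (0.11 ± 0.20 on the log2 scale, SE), and the genotypes overlapped. Hoxb6 ranged from 5.19 to 7.88 (log2 fold change -0.16 ± 0.19, SE) and Hoxb4 from 6.91 to 9.22 (-0.05 ± 0.16, SE). Hoxb9, the last expressed gene of the cluster, had 1.55, 1.95 and 2.23 in Wt and 2.31, 2.74 and 2.15 in mutant mice. Mutant mouse 3 fell inside the Wt range, and the log2 fold change was 0.27 ± 0.17 (SE, adjusted p = 0.379, limma). Hoxb3 and Hoxb2 share 2250 and 953 exon bases with the antisense gene Hoxb3os, so part of their reads could come from it.

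Hoxb8 was named after its values were seen, as the member with the lowest fold change. It had 5.74, 3.79 and 5.43 in Wt and 4.14, 3.32 and 3.46 in mutant mice. Wt mouse 2 lay inside the mutant range, with a fold change of -0.39 on the log2 scale (SE 0.19, adjusted p = 0.268, limma). Hoxb8 is the best known target of the microRNAs of the miR-196 family, which are themselves encoded inside the HoxA, HoxB and HoxC clusters. Another microRNA family of the clusters, miR-10, lies next to Hoxb4 and Hoxd4. Their mature sequences from RefSeq (GRCm38.p6), with the seed (bases 2 to 8) in capitals, show that the members of each family share a seed.
mmu-miR-196a-5p: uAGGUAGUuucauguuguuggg
mmu-miR-196b-5p: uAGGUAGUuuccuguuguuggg
mmu-miR-10a-5p: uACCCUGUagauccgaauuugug
mmu-miR-10b-5p: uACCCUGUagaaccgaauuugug

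A search of the coding transcripts of 21901 genes in GENCODE M21 for the best ungapped Watson-Crick match to miR-196a-5p placed Hoxb8 first. Of 22 bases 21 paired, and it was the only gene with as many. The site lies in the 3′ UTR of Hoxb8, in its last exon, on the plus strand of GRCm38, chr11:96284888-96284909, and capitals mark the bases that pair.
Hoxb8 site: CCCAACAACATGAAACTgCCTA
The next members, Hoxa4, Hoxd8 and Tbx5, reached 15 bases, as did 9.59% of all genes or a higher count. These libraries do not measure mature microRNAs. The rows of the miR-196 hairpins held 0 to 2 reads over all 6 mice, those of miR-10a and miR-10b held 19 and 5, and none of these rows was tested.

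In HoxC, Hoxc8 was the highest of all 45 members at 29.4 normalized CPM per kb. Hoxc8 is a trunk gene known to hold back brown fat differentiation, and Hoxc10 is a marker of subcutaneous inguinal fat. Hoxc8 had 97.6, 77.9 and 69.2 normalized CPM in Wt and 105.4, 73.6 and 75.8 in mutant mice. Mouse 1 was highest in both genotypes, and the log2 fold change was 0.05 ± 0.18 (SE), with an interval of -0.39 to 0.49. Hoxc10 followed at 16.2 normalized CPM per kb, with 35.3, 29.9 and 24.4 normalized CPM in Wt and 38.6, 29.8 and 27.9 in mutant mice (log2 fold change 0.10 ± 0.18, SE). Per kb of the longest transcript instead of all exons, Hoxc6 (20.8) stood above Hoxc10 (16.2). Hoxc6 had 35.7, 32.3 and 25.03 in Wt and 45.2, 29.4 and 29.6 in mutant mice (0.15 ± 0.21, SE), and mutant mouse 1 stood apart from the other 5.

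The remaining HoxC genes split at paralog 10. Hoxc4, Hoxc5 and Hoxc9 were expressed in every mouse, at 3.90, 4.73 and 5.46 normalized CPM per kb, and overlapped between the genotypes. Hoxc5 and Hoxc10 share 166 exon bases on the same strand. Hoxc11 lay between 0.576 and 1.88 normalized CPM, above 1 in 3 of the 6 mice, and Hoxc12 and Hoxc13 had at most 1 read in any mouse.

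HoxD was the lowest cluster, and Hoxd8 carried most of it at 6.32 normalized CPM per kb. Hoxd8 had 16.6, 15.2 and 13.5 normalized CPM in Wt and 20.5, 19.6 and 18.7 in mutant mice. The genotypes did not overlap, and the log2 fold change was 0.37 ± 0.11 (SE, adjusted p = 0.101, limma), with an exact permutation p of 0.1. The summed HoxD level per kb moved with it, at 9.46 to 10.3 in Wt and 11.4 to 12.05 in mutant mice. Hoxd9, the last expressed gene of the cluster, had 5.78, 6.42 and 6.69 in Wt and 6.45, 5.88 and 7.07 in mutant mice (log2 fold change 0.03 ± 0.13, SE). Hoxd4 lay between 2.06 and 3.72 (-0.09 ± 0.23, SE) and shares 1154 exon bases with Gm28230 and 388 with Hoxd3. It also shares 347 with the antisense gene Hoxd3os1, whose mean normalized CPM was 3.03 against 2.83 for Hoxd4, so part of its reads could come from there.

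Hoxd9 and Hoxd10 stand on the 2 sides of the HoxD step. Hoxd10 had 0.712, 0.632 and 0.926 in Wt and 0.419, 1.12 and 0.842 in mutant mice, without a difference beyond the spread (0.01 ± 0.24, SE). Their promoters, 300 bases around the annotated start, are shown from RefSeq (GRCm38.p6, plus strand) as the gene above and the gene below the step. Capitals mark any match on either strand to the TATA box letters TATAAA, to the CCAAT box, or to TGATNNAT, a site for Hox and Pbx proteins. They lie at chr2:74697513-74697812 and chr2:74691641-74691940.
Hoxd9 promoter: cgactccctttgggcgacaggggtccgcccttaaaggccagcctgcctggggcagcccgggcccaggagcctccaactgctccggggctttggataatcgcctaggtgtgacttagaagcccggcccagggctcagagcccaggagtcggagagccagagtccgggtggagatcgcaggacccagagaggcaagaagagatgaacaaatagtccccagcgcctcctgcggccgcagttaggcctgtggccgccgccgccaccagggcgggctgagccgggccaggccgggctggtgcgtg
Hoxd10 promoter: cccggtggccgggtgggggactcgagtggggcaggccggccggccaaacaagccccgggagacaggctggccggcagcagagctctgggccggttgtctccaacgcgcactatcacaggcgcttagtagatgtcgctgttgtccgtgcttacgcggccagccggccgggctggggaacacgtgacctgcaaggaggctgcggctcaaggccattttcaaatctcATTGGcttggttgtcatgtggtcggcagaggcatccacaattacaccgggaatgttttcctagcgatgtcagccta

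Hoxd9 held 20 CpG dinucleotides and Hoxd10 22, against a median of 7 over 32851 promoters of the same length, and their GC content was 68.3% and 62.7%. Hoxd10 held 1 CCAAT match and Hoxd9 no match to any of the 3 motifs. Promoters were listed for 26 of the 45 members (28 entries), with a median of 13.5 CpG. Of the 28 entries 16 held CCAAT, against 37.4% of all promoters. TATAAA was held by 6 entries and by 13.6% of all promoters, and TGATNNAT by 4 entries and by 8.85%. Matches may overlap, and a match in these windows is a description of the letters, not a binding site.

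The 6 depot genes fell into those expressed in every mouse and Tcf21. Tbx15, a T-box factor richer in subcutaneous than in most visceral fat, was the second highest member at 16.7 normalized CPM per kb. Per kb of the longest transcript instead of all exons, Hoxc6 (20.8) stood above Tbx15 (17.6). Tbx15 had 61.9, 62.3 and 38.6 normalized CPM in Wt and 78.9, 60.9 and 73.5 in mutant mice. Wt mouse 3 was low and mutant mouse 2 lay inside the Wt range (0.41 ± 0.21 on the log2 scale, SE, adjusted p = 0.285, limma). Without Wt mouse 3 the fold change was 0.18. Shox2, a homeobox gene of the proximal limb that is also richer in subcutaneous fat, had 24.0, 28.2 and 19.7 in Wt and 29.1, 18.4 and 18.3 in mutant mice (-0.14 ± 0.22, SE). The highest and the 2 lowest values of Shox2 were all in mutant mice, and the fold change was -0.36 without mutant mouse 1 and -0.021 without Wt mouse 2. Shox2 shares 153 exon bases with Rsrc1 on the other strand, which is expressed.

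En1, a homeobox gene of the dermomyotome and limb ectoderm, had 5.49, 4.04 and 3.37 in Wt and 3.46, 3.23 and 3.28 in mutant mice. Wt mouse 3 lay inside the mutant range (-0.30 ± 0.19 on the log2 scale, SE, adjusted p = 0.372, limma). Without Wt mouse 1 the fold change was -0.13. Tbx5, the T-box factor of the forelimb, was low but present, at 4.61, 3.60 and 2.82 in Wt and 6.13, 3.59 and 2.48 in mutant mice (0.07 ± 0.32, SE). The spread within each genotype was wider than the difference between them.

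Meox2, a homeobox gene of the somites and of endothelium, was the only member for which every mutant mouse lay below every Wt mouse. Wt mice had 33.3, 34.9 and 34.5 normalized CPM, and mutant mice 26.3, 31.2 and 24.2. The Wt mice were close together and the mutant mice spread, and limma gave a log2 fold change of -0.33 ± 0.11 (SE, adjusted p = 0.129, limma, exact permutation p = 0.1). In whole tissue, fewer cells of a type and less RNA per cell cannot be told apart for any of these values.

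Tcf21, a bHLH factor of the coelomic lining and of visceral fat precursors, was at or below the floor. It had 1 read in Wt mice 1 and 2, none in Wt mouse 3 and 1 in each mutant mouse, 5 reads in all, and was not tested. Promoters are shown for Meox2, 1 of the expressed depot genes, and for Tcf21, with the same motifs in capitals. They lie at chr12:37108290-37108589 (plus strand) and chr10:22820094-22820393 (minus strand). Meox2 has a TATAAA match on the other strand that begins at position -29 from the start, and Tcf21 has no match. Of the other expressed depot genes with a listed promoter, En1 has no TATAAA match and Shox2 has 1, at position -203.
Meox2 promoter: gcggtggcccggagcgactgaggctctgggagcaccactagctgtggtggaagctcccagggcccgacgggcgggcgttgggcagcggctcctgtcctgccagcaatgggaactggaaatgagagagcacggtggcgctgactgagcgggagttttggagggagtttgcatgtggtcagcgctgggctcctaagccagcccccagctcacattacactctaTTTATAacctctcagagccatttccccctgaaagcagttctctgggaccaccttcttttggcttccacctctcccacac
Tcf21 promoter: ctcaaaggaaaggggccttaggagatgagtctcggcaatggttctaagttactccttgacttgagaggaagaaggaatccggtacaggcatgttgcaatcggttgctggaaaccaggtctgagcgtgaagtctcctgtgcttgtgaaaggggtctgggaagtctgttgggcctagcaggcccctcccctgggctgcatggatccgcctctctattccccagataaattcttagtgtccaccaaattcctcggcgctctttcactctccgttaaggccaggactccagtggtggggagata

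**Figure D4:**
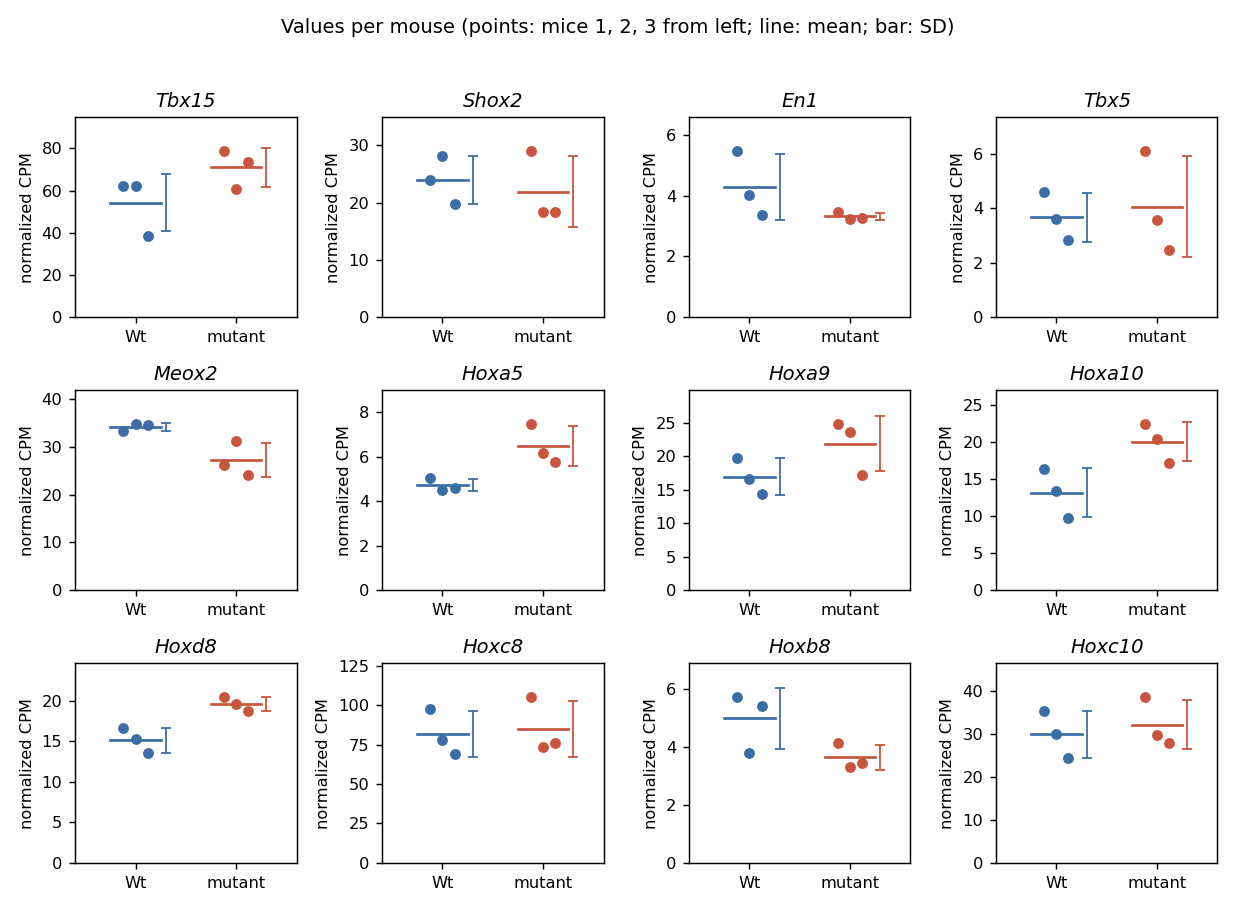
Normalized CPM per mouse (vertical axis) of 12 members, with points for mice 1, 2 and 3 of each genotype from left to right, a line at the mean and a bar of 1 SD at each side. The genotypes do not overlap for Hoxa5, Hoxa10, Hoxd8 and Meox2 and overlap for the other 8.

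The proteins and chromatin factors that work with Hox genes were counted from lists drawn up by name, with earlier results of these data known. Hox proteins bind DNA together with TALE homeodomain cofactors of the Pbx, Meis and Pknox families, and of these 9 genes limma called 1 higher and 1 lower in mutant mice (22.2%, against 8.11% of all genes tested). Pbx2 had 54.6, 53.9 and 56.4 in Wt and 41.7, 41.7 and 44.1 in mutant mice (log2 fold change -0.37, adjusted p = 0.028, limma). Pknox2 had 9.89, 9.87 and 7.78 in Wt and 14.6, 13.3 and 14.1 in mutant mice (0.59, adjusted p = 0.044, limma). Neither gene overlapped between the genotypes, and the median of the list was 0.09.

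Of 19 Polycomb, Trithorax and related genes that keep Hox genes silent or active, limma called 1 (5.26%), against 8.11% of all genes tested, and DESeq2 called 3. The gene called by limma was Men1. Menin, its product, is a partner of the Kmt2a methyltransferase. Men1 had 39.4, 41.8 and 37.8 in Wt and 29.5, 29.3 and 31.2 in mutant mice (-0.40, adjusted p = 0.033, limma). The median log2 fold change of the list was -0.24, against -0.05 over all genes tested. Of 20 other position and limb genes 14 were tested, 1 of them was called (7.14%), and this gene, Isl1, a LIM homeodomain factor of the early hindlimb field, was higher in mutant mice. Isl1 had 0.251, 0.729 and 0.295 in Wt and 1.57, 4.04 and 2.29 in mutant mice (1.72, adjusted p = 0.032, limma).

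Markers of other cell types differed between the mice. Of 8 mesothelium markers limma called 6 higher in mutant mice and none lower (75.0%, against 8.11% of all genes tested). Their summed normalized CPM was 4.81 to 32.8 in Wt and 37.7 to 77.2 in mutant mice. The defining marker Upk3b had 0.0838, 0 and 1.09 in Wt and 27.7, 11.4 and 16.6 in mutant mice. The marker lists were drawn up with earlier results of these data known. The paper's upstream regulator analysis of its RNA-seq already names Wt1, Msln and Bnc1. Of 8 skeletal muscle markers limma called Myh1 higher and none lower (12.5%, against 8.11% of all genes tested), and DESeq2 called Mylpf and Myh1. A positive fold change was found for 7 of the 8 (43.5% of all genes tested), with a median of 0.71 on the log2 scale. In limma 3 had an unadjusted p below 0.05 (24.2% of all genes tested). The summed level of the muscle markers was 10921 to 23391 in Wt and 17602 to 27440 in mutant mice. None of the 7 B cell and lymph node markers tested was called by limma, edgeR's quasi-likelihood test or DESeq2 (0 at an unadjusted p below 0.05 in limma), but their sum was 29.4 in mutant mouse 1 and 403.1 to 871.7 in the other 5 mice. Epithelium markers summed to 87.8 in Wt mouse 1 and 4.91 to 24.7 in the others, with 0 of 8 called by limma and 2 by DESeq2.

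The sum of the Hox genes per kb was 139.3, 117.1 and 109.8 in Wt and 158.4, 121.7 and 119.0 in mutant mice, so that mouse 1 was highest in both genotypes. Adipose progenitor and fibroblast markers summed to 6842, 5918 and 5441 in Wt and 8248, 7015 and 5760 in mutant mice, also highest in mouse 1 of each genotype. Of the 8, limma called 0, with 3 at an unadjusted p below 0.05, edgeR's quasi-likelihood test 0 and DESeq2 2 (Dpp4 and Dcn). The 8 adipocyte markers summed to 33710, 26082 and 22899 in Wt and 33761, 26846 and 21506 in mutant mice, again highest in mouse 1. Normalized CPM summed over all genes was also highest in mouse 1. It was 1015042, 966827 and 901654 in Wt and 1039031, 917792 and 917466 in mutant mice. Of the adipocyte markers limma called 0, with 1 at an unadjusted p below 0.05, edgeR's quasi-likelihood test 0 and DESeq2 2 (Lep and Cfd). Brown fat markers summed to 110.3 to 153.5 in Wt and 70.4 to 103.6 in mutant mice, without overlap. Of the 7 tested, 2 had a positive and 5 a negative fold change, with a median of -0.46 on the log2 scale. limma called Ucp1 lower and Zic1 higher (28.6%, against 8.11% of all genes tested), and 5 of the 7 had an unadjusted p below 0.05. edgeR's quasi-likelihood test called Ucp1 alone, while DESeq2 called both. The part of these cell types in the values of the members was not tested.

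**Figure D5:**
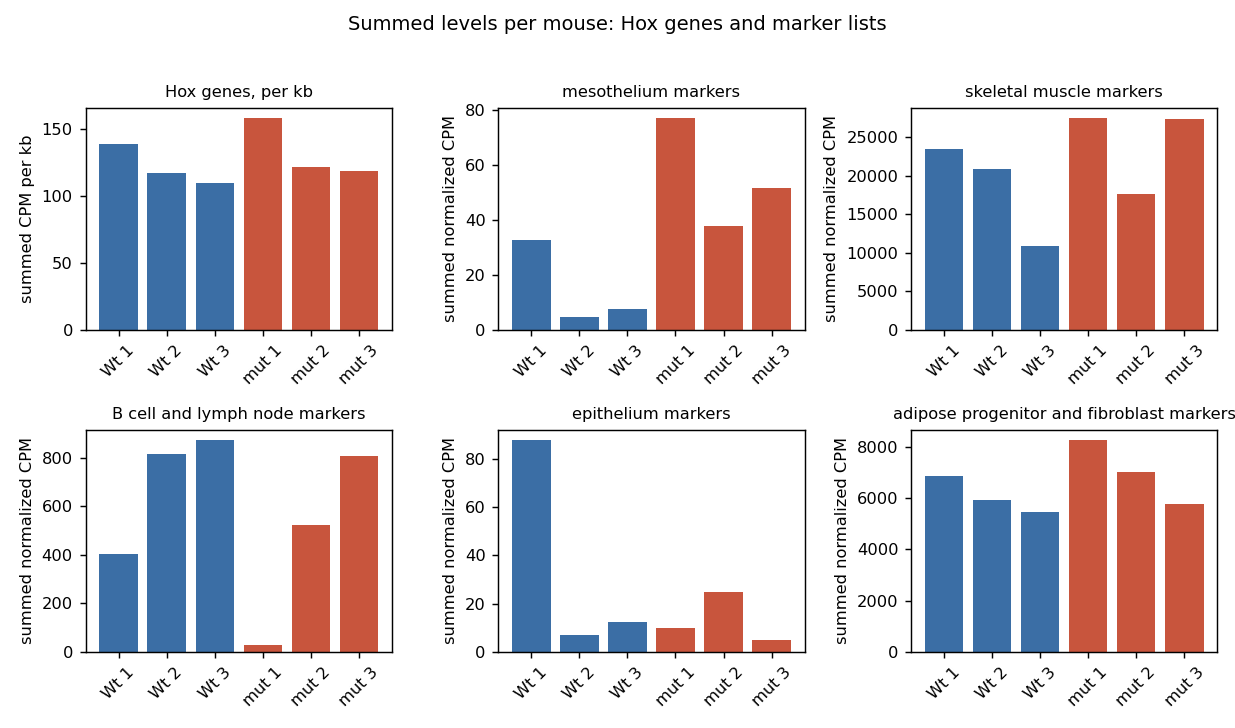
Bars give, for each of the 6 mice, the summed level of all Hox genes in normalized CPM per kb and of 5 marker lists in normalized CPM (vertical axes, each from 0). The Hox sum varies between 109.8 and 158.4, while mesothelium markers vary between 4.81 and 77.2 and B cell markers between 29.4 and 871.7.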

How the data were processed

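RNA-seq values of inguinal fat from 3 Wt and 3 mutant mice were used, grouped by genotype from the labels. The values deposited by the authors are a signal for each gene, CPM divided by a further factor per mouse (0.962 to 1.11). The labels name the build mm10, Bowtie2 2.1.0, RSEM 1.2.15 and edgeR, without their roles. Division by the step of each mouse gave whole reads for 100.0% of the values (tolerance 0.01). All 45 members were matched by identifier to GENCODE M21 (GRCm38, the assembly of mm10) for coordinates and exon length. Genes kept by filterByExpr of edgeR 4.0.16 were tested with limma 3.58.1 in R 4.3.3 (trended variance, log2 of the value plus 0.5, Benjamini-Hochberg adjustment, FDR 0.05). The pseudocount makes fold changes of low genes too small. The fits were tested on simulated data. edgeR's quasi-likelihood test and DESeq2 1.42.0 on the recovered reads, other scalings, filters and pseudocounts, the mouse number as a replicate block, and fits without each mouse in turn were the alternatives. Libraries of a genotype differed by more than sampling noise (19.3 to 64.7 as chi-square over degrees of freedom), so each was counted.

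The members and lists were chosen with earlier results of these data known. By rule, values per mouse are given for the 6 depot genes, the 3 highest genes per kb and the most posterior expressed gene of each cluster, members called in any fit, and called genes of the other lists. Members named outside the rule were chosen after their values were seen. Promoter and microRNA sequences are from RefSeq. The values of 1 member are not reported here.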

Additional observations from a re-analysis of the deposited data

How the results depend on the processing

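The number of members called was 0 under every alternative to test, scaling, filter, pseudocount and FDR (0.1), and 0 to 0 with each mouse left out, except with the replicate block. The mouse number as a replicate block called 3 members, Hoxa10 (adjusted p = 0.018, limma), Hoxd8 (0.033) and Hoxa9 (0.039), all higher in mutant mice, while 4063 of all genes (24.1%) were called. Mice with the same number deviated from their genotypes with correlations of 0.69, 0.06 and 0.56. Wt mice 1 and 3 correlated best with the mutant mouse of their own number, and Wt mouse 2 with mutant mouse 3 (0.33). Deviations from a genotype mean are not independent over its mice, so these correlations cannot decide whether the numbers pair the mice. The labels name no pairing, and shared handling by number was not tested. Genes called over the whole table came to 1368 and moved to 2263 at an FDR of 0.1, 2118 with DESeq2, 598 with at least 10 reads in every mouse and 554 to 1005 with 1 mouse left out (840, 554 and 581 without Wt mice 1, 2 and 3, and 1005, 587 and 776 without mutant mice 1, 2 and 3). The cause was not tested. Of the calls 67.8% were higher in mutant mice, against 79.4% with library size only, 57.7% with at least 10 reads, 42.7% with the replicate block and up to 89.5% with 1 mouse left out. With 1 mouse left out, the fold change turned sign for 18 of the 33 members tested, none of them called. Among those whose values are given by rule these were Hoxa7 (-0.25 to 0.060), Hoxb4 (-0.16 to 0.033), Hoxb7 (-0.030 to 0.29), Hoxc6 (-0.056 to 0.25), Hoxc8 (-0.11 to 0.19), Hoxc10 (-0.034 to 0.23), Hoxd4 (-0.30 to 0.064), Hoxd9 (-0.028 to 0.095) and Tbx5 (-0.24 to 0.34). Of the 15 that kept their sign, 8 moved by over 1.5 times, among them Shox2 (-0.36 to -0.021), Tbx15 (0.18 to 0.53), En1 (-0.45 to -0.13), Hoxb6 (-0.31 to -0.038) and Hoxb9 (0.16 to 0.37), and 7 did not, Hoxa2, Hoxa5, Hoxa9, Hoxa10, Hoxb8, Hoxd8 and Meox2. The median of the members fell from 0.07 to -0.03 without mutant mouse 1. Depth limits the posterior genes, since levels under 3 reads could not be compared.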

Other observations

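Of the 46 other genes that lie between the outermost Hox genes of the clusters, 18 had no read in any mouse and 9 were tested with limma. Of these 9, limma called 2 (22.2%, against 8.11% of all genes tested). Gm11539, a processed pseudogene inside HoxB, was called lower in mutant mice, with 2.22, 1.605 and 2.104 normalized CPM in Wt and 0.419, 0.404 and 0.796 in mutant mice (log2 fold change -1.26, adjusted p = 0.017). The gene 5730596B20Rik, which shares 292 exon bases with Hoxa3 on the other strand, was called higher by limma (0.82, adjusted p = 0.045). It had 5, 1 and 2 reads in Wt and 9, 12 and 16 reads in mutant mice. Neither edgeR's quasi-likelihood test (adjusted p = 0.052) nor DESeq2 called 5730596B20Rik. The antisense gene Hoxb3os had 4.31, 3.55 and 3.91 in Wt and 7.18, 4.31 and 5.33 in mutant mice, and Hoxd3os1 had 2.89, 2.97 and 3.28 in Wt and 3.77, 2.87 and 2.39 in mutant mice. Neither of these antisense genes was called.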
